A study of Homo sapiens with 6 samples.

Results

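The subunits of the hypoxia-inducible factors (HIFs) and the enzymes that couple them to oxygen were followed in K562 cells deprived of iron. The 10 genes were chosen by symbol, as the family of HIF subunits, HIF hydroxylases and VHL, out of 62252 genes with quantified transcripts: *HIF1A*, *EPAS1*, *HIF3A*, *ARNT*, *ARNT2*, *EGLN1*, *EGLN2*, *EGLN3*, *HIF1AN* and *VHL*. K562 is an erythroid leukemia line that grows in suspension. The Chelator group was kept overnight with 10 µM 21H7, a cell-permeable iron chelator, and the DMSO group received a matched volume of the solvent, each in 3 biological replicates. Both groups were grown in the same serum-containing medium, and polyadenylated RNA was sequenced as paired-end Illumina reads. The cells came from a sole established line, and only RNA was measured, so the values below say nothing of the amounts or activity of the proteins.

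A HIF is a pair of proteins, an oxygen-labile alpha subunit and a stable partner of the ARNT type, that binds DNA and raises transcription of genes for glycolysis, blood vessel growth, iron uptake and red cell production. The EGLN enzymes hydroxylate prolines of the alpha subunit with oxygen, oxoglutarate and ferrous iron, and the VHL ubiquitin ligase recognizes the hydroxylated protein and marks it for degradation. HIF1AN, which needs the same cosubstrates, hydroxylates an asparagine and so keeps coactivators away. In red cell precursors this pathway links oxygen supply to iron use, and the EPAS1 mRNA itself carries an iron-responsive element, a hairpin bound by iron regulatory proteins.

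The libraries held between 78.6 and 101 M estimated counts (M, 1e+06), and all 10 genes entered the fit. All 8 erythroid markers examined were detected, the lowest at 42.9 TPM (a level per transcript length, scaled to the same total in each library). Their summed TPM was 10007 to 11026 in DMSO and 14746 to 15506 in Chelator, with 5 of the 8, among them *TFRC* and the globin genes *HBG1* and *HBG2*, higher in all Chelator libraries, and *KLF1* and *TAL1* lower in all of them. Of 10 markers of other cell types, *MS4A1* was at 0 in every library and 6 were higher in all Chelator libraries than in all DMSO libraries. The epithelial *EPCAM*, at 62.3 to 68.8 TPM in DMSO and 45.6 to 50.3 TPM in Chelator, and the fibroblast marker *COL1A2*, at 2.19 to 2.71 and 1.66 to 2.08 TPM, were lower in all Chelator libraries. The summed level of the 10 markers was 369 to 420 TPM in DMSO and 961 to 1097 TPM in Chelator, mostly *KRT8*, and their part in the results was not tested. The difference between length and effective length of long transcripts without counts, a reading of fragment length, was 264 to 274 bases in DMSO and lower, at 218 to 231 bases, in all Chelator libraries. The effect of the chelator and that of shorter fragments cannot be told apart here. In RNA from whole cultures, fewer cells of a type and less RNA per cell cannot be told apart either.

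After chelation *EPAS1* rose 8.44-fold (log2 fold change 3.08, 95% interval 2.82 to 3.33), *EGLN3* rose 1.85-fold, and *EGLN2*, *HIF1AN* and *VHL* fell to between 0.818 and 0.842 of their DMSO level, while *HIF1A*, *ARNT* and *EGLN1* did not pass the test. A gene was called when the adjusted p of DESeq2's Wald test was under 0.05 and its absolute log2 fold change was above 1. By this rule 1 of the 10 genes, *EPAS1*, was called, beside 10.3% of all 25553 genes with an adjusted p, of which 7.81% were higher and 2.46% lower. With the p threshold alone, 5 of the 10 passed, 2 higher and 3 lower, beside 35.9% of all genes (18.5% up and 17.4% down). Over the 10 genes the median log2 fold change was 0.11, and over the 8 without *HIF3A* and *ARNT2*, which had only a few counts, it was 0.040, against 0.019 over all genes tested.

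**Figure D1:**
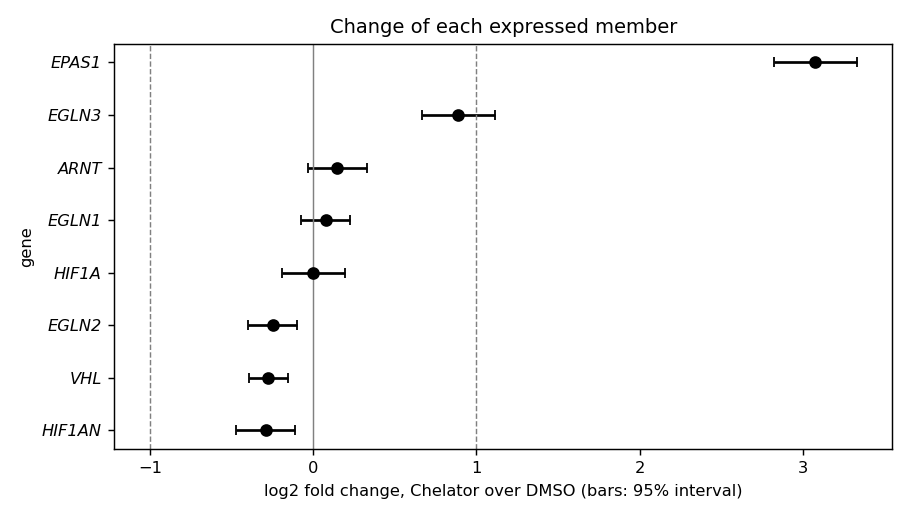
Log2 fold change, Chelator over DMSO, of the 8 expressed genes of the family. Points are DESeq2 estimates, bars are 95% intervals and dashed lines mark the fold threshold. The interval of *EPAS1* lies wholly beyond the threshold, that of *EGLN3* spans it, and those of *HIF1A*, *ARNT* and *EGLN1* span 0.

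*EPAS1* encodes HIF-2 alpha, the alpha subunit that drives erythropoietin and iron uptake genes in several tissues. The gene (ENSG00000116016.14) lies on the plus strand at chr2:46293667-46386697 of GRCh38. Its estimated counts were 499, 516 and 451 in DMSO and 6689, 6153 and 5489 in Chelator. Normalized for depth and transcript length, these became 632, 623 and 536 in DMSO and 5482, 4044 and 5597 in Chelator. Every Chelator library was thus far above every DMSO library, and the spread within Chelator came mainly from the lower second library. The means were 597 ± 53.0 and 5041 ± 865 (SD, n = 3 per group). The log2 fold change was 3.08 ± 0.13 (SE), an 8.44-fold rise with a DESeq2 adjusted p of 6.83e-121. By log2 fold change *EPAS1* ranked 954th among the 26074 genes in the fit, those with few counts included. *EPAS1* remained called under each of the 15 alternative fits, with log2 fold changes from 2.96 to 3.41.

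Most of the added *EPAS1* RNA was assigned to the full-length coding transcript EPAS1-201, which encodes 870 amino acids. Its TPM was 1.04, 1.32 and 1.07 in DMSO and 15.5, 13.4 and 13.7 in Chelator, a 12.4-fold ratio of the means. EPAS1-201 held 48.9%, 52.9% and 58.5% of the gene's TPM in DMSO and 79.4%, 88.0% and 67.0% in Chelator, so the groups did not overlap. The other transcripts with at least 10% of the TPM in either group had no complete coding sequence. The retained-intron transcript EPAS1-206 held 11.9% ± 3.42 of the TPM in DMSO and 2.51% ± 0.28 in Chelator (SD, n = 3 per group). EPAS1-209 had a share of 17.6% ± 12.1 in DMSO and 5.18% ± 2.66 in Chelator, and EPAS1-207 had 10.4% ± 6.51 and 1.09% ± 0.40, both on means of fewer than 20 counts per library. The test of transcript usage, edgeR's diffSpliceDGE, gave *EPAS1* an adjusted p of 0.101, so a change in usage was not called, whereas limma's diffSplice gave an adjusted p of 2.52e-06.

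The leader of EPAS1-201, the untranslated stretch before its start codon, is shown where it holds the iron-responsive element, because iron was the variable changed. The search was for the loop CAGTGN preceded by 5 bases and, before those, a C, in which the 5 bases pair with those after the loop, G with T allowed, and at most 1 base after the loop may be unpaired. The allowance was added after a first search without it, which *EPAS1* did not meet. Of 18647 leaders 42 (0.225%) held such a hairpin, and 19 (0.102%) held it without the unpaired base. Of the 9 leaders searched among the 10 genes, that of *EPAS1* alone met the looser rule and none the stricter. The window, at chr2:46297479-46297508 on the plus strand, is written with the loop in capitals.
EPAS1 leader: tacaatcctcggCAGTGTcctgagactgta
A match is a description of the letters and not a measurement of binding.

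*HIF1A*, which encodes HIF-1 alpha, the broadly expressed alpha subunit behind much of the glycolytic response, showed no detectable change. Its gene (ENSG00000100644.17) lies on the plus strand at chr14:61695513-61748259. Normalized counts were 3760, 4114 and 4352 in DMSO and 4586, 3939 and 3721 in Chelator. The 2 groups overlapped, with the highest and the lowest value both close to those of the other group. Means were 4075 ± 298 and 4082 ± 450 (SD, n = 3 per group), and the log2 fold change was 0.0027 ± 0.099 (SE) with a DESeq2 adjusted p of 0.989. The 95% interval ran from -0.19 to 0.20.

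The coding transcripts HIF1A-202 and HIF1A-203, which encode 826 and 827 amino acids, made up most of the *HIF1A* RNA. HIF1A-202 held 59.2% ± 6.43 of the gene's TPM in DMSO and 55.3% ± 5.25 in Chelator (SD, n = 3 per group). HIF1A-203 held 16.1% ± 2.07 and 13.7% ± 1.33, and the retained-intron transcript HIF1A-205 held 13.7% ± 2.60 and 10.0% ± 3.72. All 3 shares overlapped between the groups. *HIF1A-AS3*, an antisense neighbour that runs past the end of *HIF1A*, had 401 ± 172 and 429 ± 57.8 normalized counts. Its log2 fold change was 0.10 ± 0.25 (SE). Where exons of the 2 genes overlap, their reads could be told apart only if strand had been used.

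*HIF3A*, the third alpha subunit and in several forms a competitor of the others, was at the limit of detection. Its estimated counts were 0, 2 and 7 in DMSO and 0, 1 and 6 in Chelator. These values are at or under a floor of 3 counts per library on average, so no fold is given, and a difference was not detectable at this depth (DESeq2 adjusted p = 0.765).

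Per length, the alpha-subunit RNA of the 2 groups differed in amount and in make-up. The summed TPM of the 3 alpha genes was 21.6, 27.8 and 24.7 in DMSO and 44.5, 38.0 and 41.5 in Chelator, with no overlap. *EPAS1* contributed 9.86%, 8.97% and 7.42% of it in DMSO and 43.7%, 40.0% and 49.4% in Chelator. Its share was 35.7 percentage points higher in Chelator, at 44.4% ± 4.71 against 8.75% ± 1.24 (SD, n = 3 per group), with an exact two-sided permutation p of 0.1, the smallest that 3 against 3 libraries can give. The share of *HIF1A* was 91.2% ± 1.2 in DMSO and 55.6% ± 4.77 in Chelator, with levels of 22.5 and 22.9 TPM.

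The 2 subunits could also be compared over protein-coding transcripts alone. The ratio of *EPAS1* to *HIF1A* TPM over such transcripts was 0.0626, 0.0701 and 0.0677 in DMSO and 0.921, 0.868 and 0.861 in Chelator. Over all transcripts it was 0.096 ± 0.015 in DMSO and 0.808 ± 0.157 in Chelator (SD, n = 3 per group). In the DMSO cells the *HIF1A* level was thus far above that of *EPAS1*. In the Chelator cells the coding levels were 16.1 ± 0.67 TPM for *HIF1A* and 14.2 ± 1.1 TPM for *EPAS1*. Their ranges overlapped slightly across libraries, but *HIF1A* was the higher within each library. Over all transcripts the Chelator ranges, 20.9 to 25.0 TPM for *HIF1A* and 15.2 to 20.5 TPM for *EPAS1*, did not overlap.

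**Figure D2:**
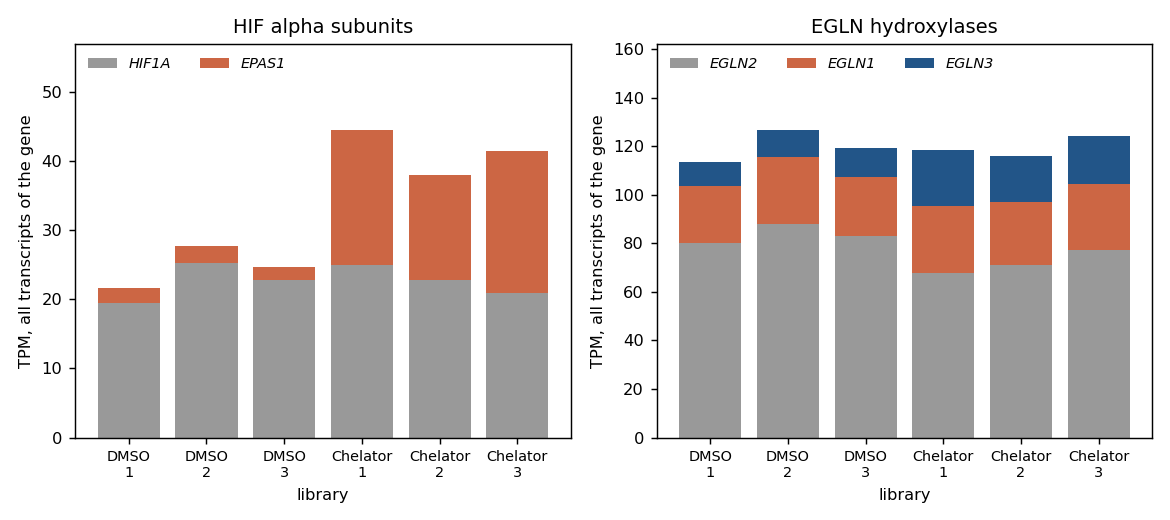
TPM of the alpha subunits (left) and of the EGLN hydroxylases (right) in each library, stacked by gene, *HIF3A* (at most 0.0468 TPM) left out. The alpha total was 21.6 to 27.8 TPM in DMSO and 38.0 to 44.5 TPM in Chelator, while the EGLN total was 114 to 127 TPM and 116 to 124 TPM.

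*ARNT*, also called HIF-1 beta, is the widely expressed partner of the alpha subunits, shared with the dioxin receptor AHR. The gene (ENSG00000143437.21) lies on the minus strand at chr1:150809713-150876708. Normalized counts were 4833, 5108 and 6001 in DMSO and 5710, 5815 and 6143 in Chelator. The third DMSO library lay among the Chelator libraries and the other two below them. Means were 5314 ± 611 and 5889 ± 225 (SD, n = 3 per group), with a log2 fold change of 0.15 ± 0.093 (SE) and a DESeq2 adjusted p of 0.219. Without DMSO replicate 3 the log2 fold change was 0.24 and the adjusted p 0.0113, so the result rests on that library.

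Much of the *ARNT* TPM came from a short transcript. ARNT-209, a retained-intron transcript of 570 bases, held 36.7% ± 6.90 of the gene's TPM in DMSO and 45.5% ± 2.17 in Chelator (SD, n = 3 per group), but only 5.74% ± 1.84 and 9.09% ± 0.99 of its estimated counts. The canonical coding transcript ARNT-202, with 789 amino acids, held 21.9% ± 4.78 and 20.7% ± 3.65 of the TPM. ARNT-208, a coding transcript of 774 amino acids, held 21.8% ± 3.31 and 18.1% ± 1.03. The share of ARNT-204, annotated as a target of nonsense-mediated decay, was 12.4% ± 0.66 and 8.05% ± 1.22, without overlap. Usage of *ARNT* transcripts was not called (edgeR adjusted p = 1), and the TPM of its protein-coding transcripts was 16.9 ± 1.54 in DMSO and 16.7 ± 0.11 in Chelator.

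*ARNT2*, a partner found mainly in neurons, had estimated counts of 4, 0 and 5 in DMSO and 7, 6 and 1 in Chelator. The groups overlapped near the floor of 3 counts per library, and no difference was detectable at this depth (DESeq2 adjusted p = 0.801). *ARNT* was therefore the partner present in quantity in these libraries.

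**Figure D3:**
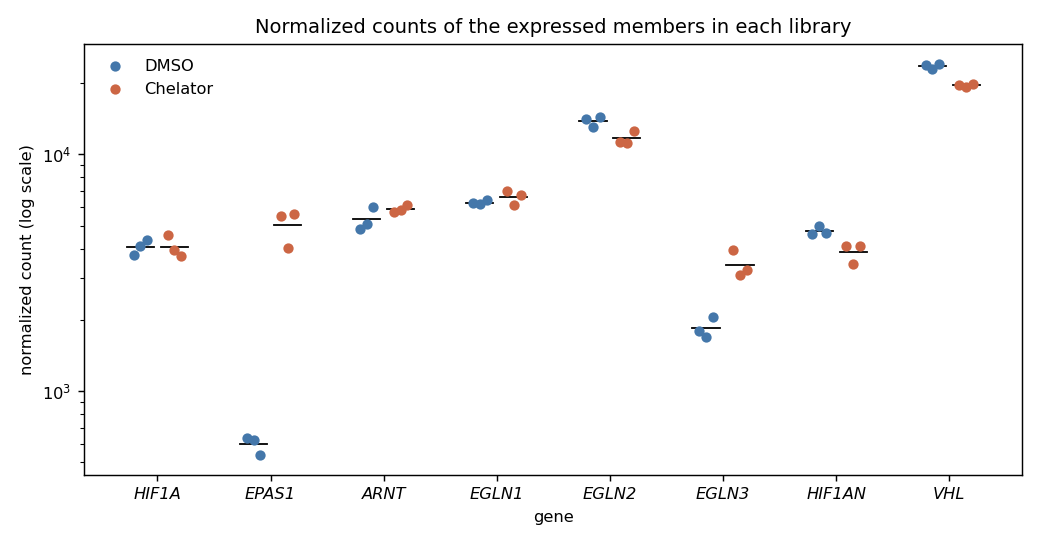
Normalized counts (log scale) of the 8 expressed genes in each of 3 DMSO and 3 Chelator libraries, with lines at group means. *EPAS1* and *EGLN3* lie higher in every Chelator library, *EGLN2*, *HIF1AN* and *VHL* lower, and *HIF1A*, *ARNT* and *EGLN1* overlap.

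Of the 3 prolyl hydroxylases, *EGLN3* was the one that rose. EGLN3 (PHD3) is known as a HIF-inducible enzyme, and its gene (ENSG00000129521.15) lies on the minus strand at chr14:33924227-34462774. Normalized counts were 1797, 1687 and 2050 in DMSO and 3929, 3082 and 3240 in Chelator. The lowest Chelator value was well above the highest DMSO value. Means were 1844 ± 186 and 3417 ± 451 (SD, n = 3 per group). The 1.85-fold rise, a log2 fold change of 0.89 ± 0.11 (SE) with a DESeq2 adjusted p of 1.26e-13, fell short of the fold threshold, and over 15 alternatives it ran from 0.77 to 0.97.

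The *EGLN3* RNA was spread over 3 coding transcripts that differ in what they encode. EGLN3-201, the canonical form of 239 amino acids, had 9.18 ± 0.80 TPM in DMSO and 15.1 ± 1.64 TPM in Chelator (SD, n = 3 per group), without overlap. Its share of the gene's TPM was 83.7% ± 3.62 and 73.1% ± 1.7, with an exact two-sided permutation p of 0.1. EGLN3-205, an unspliced form of 1 exon with 148 coding amino acids, had a TPM of 0.953, 0.895 and 0.765 in DMSO and 2.25, 2.54 and 2.72 in Chelator. EGLN3-209, with 145 coding amino acids, had a share of 7.84% ± 4.88 and 14.0% ± 1.97, which overlapped. The edgeR usage test gave an adjusted p of 1 and no call, whereas limma's diffSplice gave 0.0224.

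*EGLN1* encodes PHD2, the main oxygen sensor of most cells and itself a HIF target in many of them. The gene (ENSG00000135766.9) lies on the minus strand at chr1:231363751-231422287. Normalized counts were 6221, 6170 and 6400 in DMSO and 6984, 6116 and 6721 in Chelator. The second Chelator library was below all DMSO libraries and the other two above them. Means were 6264 ± 121 and 6607 ± 445 (SD, n = 3 per group), the log2 fold change was 0.077 ± 0.077 (SE), and the DESeq2 adjusted p was 0.49. The 95% interval ran from -0.073 to 0.23.

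The canonical EGLN1-201, with 426 amino acids, held 78.5% ± 2.32 and 76.7% ± 3.59 of the TPM (SD, n = 3 per group), and the shorter coding EGLN1-204 held 13.6% ± 3.52 and 10.3% ± 2.82. The usage test gave an adjusted p of 5.83e-04, but no share moved by more than 5 percentage points, so *EGLN1* was not called. Without DMSO replicate 2 it was called, with a share change of 5.24 percentage points (adjusted p = 0.0036), and with any 1 Chelator library left out the adjusted p was 1. Over all genes 10.8% passed this p alone. That p of the main test came from EGLN1-202, a transcript of 614 bases with no defined coding sequence. It was at 0 in DMSO, with 13.9, 16.7 and 78.6 estimated counts in Chelator. EGLN1-202 reached the 10 counts in 3 libraries needed for the test through the Chelator group alone. It could not enter with a Chelator library left out, so the loss of the small p there does not show dependence on 1 library.

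*EGLN2*, which encodes PHD1, was the most abundant of the 3 hydroxylases per length and was lower in Chelator. The gene (ENSG00000269858.6) lies on the plus strand at chr19:40798996-40808434. Normalized counts were 14134, 13070 and 14427 in DMSO and 11313, 11222 and 12517 in Chelator. The groups did not overlap, although the third Chelator library came near the second DMSO library. Means were 13877 ± 714 and 11684 ± 723 (SD, n = 3 per group). *EGLN2* fell by 0.25 ± 0.076 (SE) on the log2 scale with a DESeq2 adjusted p of 0.00434.

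*EGLN2* was also the 1 member of the family called for transcript usage (edgeR adjusted p = 3.32e-04), beside 9.22% of the 11938 genes tested for it. The canonical EGLN2-201, with 407 amino acids, held 86.9%, 86.4% and 86.5% of the TPM in DMSO and 80.6%, 82.0% and 80.1% in Chelator. It alone moved by more than 5 percentage points, but its own unadjusted edgeR p was 0.779. The smallest transcript p-values belonged to 2 short forms at 0 in every DMSO library. EGLN2-203 had 18.4, 52.7 and 59.6 estimated counts in Chelator and EGLN2-215 had 13.3, 19.7 and 35.3. Their shares rose by 1.57 and 0.83 percentage points, so no transcript had both a small p and a change above 5 percentage points. The 2 forms reached the 10 counts in 3 libraries needed for the test through the Chelator group alone. Without Chelator replicate 2, or without Chelator replicate 3, the adjusted p was 1 and the call was lost. By that requirement neither form could enter with a Chelator library left out, so this loss does not show dependence on 1 library. The readthrough gene *RAB4B-EGLN2*, which shares exons with *EGLN2*, had 30.5 ± 13.1 and 43.3 ± 1.02 normalized counts (DESeq2 adjusted p = 0.514), few beside those of *EGLN2*, and how salmon divided the shared reads is uncertain. The upstream neighbour *RAB4B*, a vesicle traffic GTPase, rose by a log2 fold change of 1.53 ± 0.14 (SE, adjusted p = 6.83e-25).

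The summed TPM of the 3 EGLN genes overlapped between the groups while their proportions did not. The sum was 114, 127 and 119 in DMSO and 119, 116 and 124 in Chelator, with means of 119.8 ± 6.56 and 119.7 ± 4.21 (SD, n = 3 per group, exact two-sided permutation p = 1). *EGLN3* supplied 8.85%, 8.84% and 9.77% of it in DMSO and 19.6%, 16.6% and 15.9% in Chelator. The share of *EGLN2* was 69.97% ± 0.59 in DMSO and 60.2% ± 2.68 in Chelator, and that of *EGLN1* was 20.9% ± 0.68 and 22.5% ± 0.72. Each of the 3 shares had an exact two-sided permutation p of 0.1, the smallest possible. The ratio of *EGLN3* to *EGLN2* TPM was 0.131 ± 0.0080 in DMSO and 0.289 ± 0.047 in Chelator.

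Promoters are shown where they hold the core letters of a hypoxia response element, to which HIF pairs are known to bind. The motifs searched were ACGTG and GCGTG on either strand, in windows of 250 bases before to 50 bases after each RefSeq start (GRCh38.p14). Matches may overlap, as in CACGTG, which carries ACGTG on both strands. Of all 35116 such windows, 48.4% held at least 1 of the 2 motifs and 21.4% held ACGTG. Among 12 windows of 8 members, 5 held either motif and 2 held ACGTG. *VHL* and *ARNT2* had no window in the table. The motif is in capitals in the 3 windows shown, which are those of the alpha subunit that rose and of the 2 hydroxylases with ACGTG.
EPAS1 promoter: gggcctgccggcGCGTGcccgcccacaca
EGLN1 promoter: gggccgtggtgtACGTGcagagcgcgcag
EGLN2 promoter: cggggcgcggtcACGTGcccaccgggcga
They lie at chr2:46297278-46297306 (plus strand), chr1:231422284-231422312 (minus strand) and chr19:40799131-40799159 (plus strand), with the motif's first base at -117, -13 and -48 from the start. *HIF1A* and *HIF3A* held GCGTG, while the windows of *EGLN3*, *ARNT* and *HIF1AN* did not hold these letters. The genes with the motif thus included 1 that rose, 1 that fell and others without a detected change, and a match shows the letters only.

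*HIF1AN*, also known as FIH, encodes the asparaginyl hydroxylase. The gene (ENSG00000166135.14) lies on the plus strand at chr10:100529072-100559998. Normalized counts were 4628, 4997 and 4638 in DMSO and 4121, 3438 and 4110 in Chelator. All Chelator libraries were below all DMSO libraries, the second by the widest margin. Means were 4754 ± 210 and 3890 ± 391 (SD, n = 3 per group). *HIF1AN* fell by 0.29 ± 0.092 (SE) on the log2 scale (DESeq2 adjusted p = 0.00611), but with trends on GC content and length removed the log2 fold change was -0.17 and the adjusted p was 0.0887.

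The level of *HIF1AN* per length depends on a short transcript. HIF1AN-203, a 708-base form annotated for nonsense-mediated decay, held 43.7% ± 2.11 of the TPM in DMSO and 48.9% ± 3.95 in Chelator (SD, n = 3 per group) with only 2.93% ± 0.15 and 4.07% ± 0.78 of the counts. The canonical HIF1AN-201, with 349 amino acids, held 52.9% ± 1.84 and 47.5% ± 4.62 of the TPM. Over protein-coding transcripts *HIF1AN* had 4.82, 5.77 and 4.80 TPM in DMSO and 4.03, 3.79 and 3.63 TPM in Chelator, again without overlap. Usage was not called (edgeR adjusted p = 1).

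*VHL*, the substrate receptor of the ubiquitin ligase, had the highest mean level of the 10 genes in DMSO. The gene (ENSG00000134086.9) lies on the plus strand at chr3:10141778-10153667. Normalized counts were 23763, 23041 and 24202 in DMSO and 19675, 19179 and 19817 in Chelator. The groups were separated by more than the spread within either. Means were 23669 ± 587 and 19557 ± 335 (SD, n = 3 per group). *VHL* fell by 0.28 ± 0.061 (SE) on the log2 scale with a DESeq2 adjusted p of 3.57e-05, and its adjusted p was at most 0.00565 over 15 alternatives.

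VHL-201, which encodes the protein of 213 amino acids, had 66.4, 75.1 and 67.1 TPM in DMSO and 55.8, 55.4 and 55.7 TPM in Chelator. Its share of the gene's TPM was 74.9% ± 0.92 and 71.2% ± 1.63 (SD, n = 3 per group). VHL-203, a form with no defined coding sequence, took 11.7% ± 0.41 and 16.0% ± 0.41, with no overlap. VHL-202 leaves out exon 2 (123 bases, chr3:10146514-10146636) and encodes 172 amino acids. Its TPM was 6.78, 9.93 and 9.21 in DMSO and 4.61, 4.70 and 4.78 in Chelator, and its share was 9.27% ± 1.33 and 6.0% ± 0.045. VHL-204, annotated for nonsense-mediated decay, had a share of 3.05% ± 0.25 in DMSO and 5.96% ± 1.45 in Chelator, higher without overlap. VHL-202 and VHL-204 were below the 10% used to choose transcripts and were described after their values were seen. Usage of *VHL* was not called (edgeR adjusted p = 0.315).

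The junctions that tell these 2 forms apart are given as 15 bases on each side, with the downstream exon in capitals. Both begin at the same last base of exon 1, chr3:10142187, and continue on the plus strand at 10146514 in exon 2 or at 10149787 in exon 3.
VHL-201 junction: tccacagctaccgagGTCACCTTTGGCTCT
VHL-202 junction: tccacagctaccgagTGTATACTCTGAAAG
The estimated share of VHL-202 depends on reads over the second of these and on how salmon divided the reads the forms share.

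**Figure D4:**
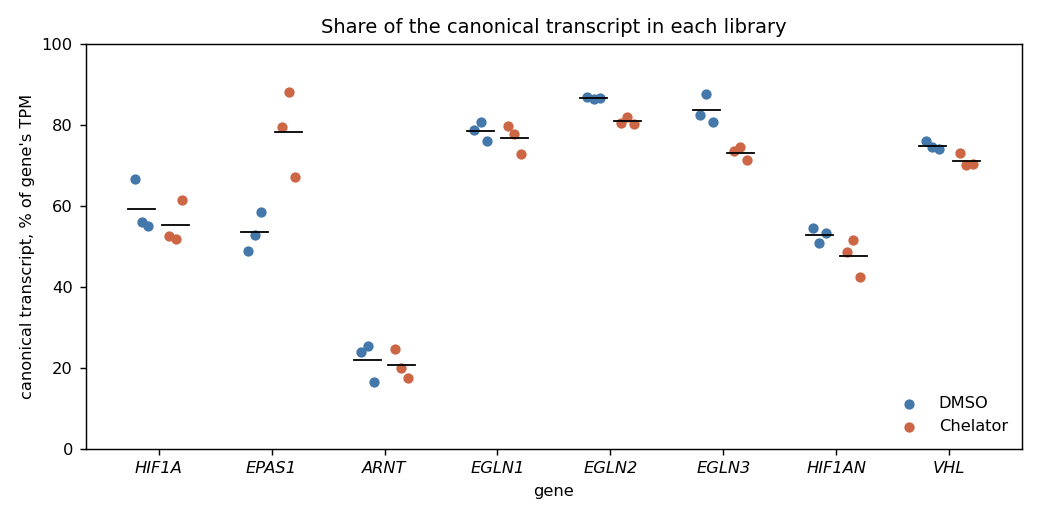
Share of each gene's TPM held by its canonical transcript in each library, in percent, with lines at group means. The share is higher in Chelator for *EPAS1* and lower for *EGLN2*, *EGLN3* and *VHL* without overlap, and overlaps for the other 4 genes.

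Set in order of level per length, the genes of DMSO cells ran from *VHL* (92.9 ± 6.90 TPM, SD, n = 3) and *EGLN2* (83.8 ± 3.94 TPM) through *ARNT* (35.5 ± 4.50 TPM), *EGLN1* (25.0 ± 2.14 TPM) and *HIF1A* (22.5 ± 2.92 TPM) to *EGLN3* (10.97 ± 0.82 TPM), *HIF1AN* (9.73 ± 1.39 TPM) and *EPAS1* (2.15 ± 0.33 TPM). Among expressed neighbours in that order, the ranges of *VHL* and *EGLN2*, of *EGLN1* and *HIF1A*, and of *EGLN3* and *HIF1AN* overlapped. Within each DMSO library *VHL* was above *EGLN2* and *EGLN1* above *HIF1A*, while *EGLN3* and *HIF1AN* changed order. In Chelator cells *VHL* (78.2 ± 1.59 TPM) and *EGLN2* (72.1 ± 4.81 TPM) still overlapped at the top, with *VHL* the higher within each library. *ARNT* (40.2 ± 2.13 TPM) and *EGLN1* (26.9 ± 1.08 TPM) followed, each clear of the next gene. *HIF1A* (22.9 ± 2.05 TPM), *EGLN3* (20.7 ± 2.14 TPM) and *EPAS1* (18.4 ± 2.79 TPM) then formed a run of overlapping neighbours above *HIF1AN* (8.07 ± 0.63 TPM). Within each Chelator library *HIF1A* was above *EGLN3*, while *EGLN3* and *EPAS1* changed order. *EPAS1* passed from the eighth place to the seventh. By protein-coding transcripts alone *ARNT*, the third over all transcripts, was the fifth in both groups, below *EGLN1*, and *EGLN3* was the fourth in Chelator. *EGLN2* (66.9 ± 4.81 TPM) then stood above *VHL* (61.0 ± 0.14 TPM) in Chelator, without overlap.

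The pseudogenes and the look-alike gene of the family, *HIF1AP1*, *EGLN1P1*, *EGLN3P1* and *VHLL*, were listed at 0 counts in every library. Among 10340 genes with a mean of at least 500 normalized counts, those whose log2 values followed *EPAS1* most closely over the 6 libraries were *RNF19B* (Pearson r = 0.99974), *BNIP3L* (r = 0.99914) and *SLC25A25* (r = 0.99905). With 6 libraries in 2 groups such values are common, and 266 genes had an r above 0.99.

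The other genes of the pathway are described as lists. Of 9 components of the VHL ligase machinery, none was called by DESeq2 or by edgeR, while 6 had an unadjusted DESeq2 p under 0.05. With the adjusted p alone 3 rose and 3 fell, beside 18.5% and 17.4% of all genes, and the median log2 fold change was 0.092. The 3 that rose were the ring protein *RBX1*, with a log2 fold change of 0.70 ± 0.13 (SE), the modifier *NEDD8*, at 0.58 ± 0.11, and the adaptor *ELOB*, at 0.43 ± 0.097. The 3 that fell were the scaffold *CUL2*, at -0.27 ± 0.077, the NEDD8-conjugating *UBE2M*, at -0.30 ± 0.069, and the ubiquitin-conjugating *UBE2D1*, at -0.40 ± 0.11. Some of these were named only after their values were seen. The other adaptor, *ELOC*, had a log2 fold change of 0.092 ± 0.095 (adjusted p = 0.507). The ubiquitin-conjugating *UBE2D3* and *UBE2D2* had log2 fold changes of 0.050 ± 0.081 and 0.10 ± 0.081 and did not pass.

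Of 10 coactivators and CITED competitors, 1 was called, *CITED4*, which had 27.4 ± 6.56 normalized counts in DMSO and 147 ± 39.7 in Chelator (SD, n = 3 per group), a log2 fold change of 2.42 ± 0.37 (SE). The 1 of 10 stands beside 10.3% called over all genes. *CITED4* lies below the mean of 100 used to choose names and was picked after its values were seen. With the p threshold alone 3 rose and 1 fell, beside 35.9% of all genes that passed it, and the list's median was 0.0046. The acetyltransferase *CREBBP* rose by 0.26 ± 0.097 (adjusted p = 0.0213) on the log2 scale. Its partner *EP300* had a log2 fold change of -0.31 ± 0.25 (adjusted p = 0.391), *CITED2*, which competes with HIF alpha for both, -0.011 ± 0.089 (adjusted p = 0.949), and *NCOA1* -0.20 ± 0.096 (adjusted p = 0.0843).

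Of 21 regulators of HIF stability and hydroxylase activity, 2 were called and rose, beside 10.3% of all genes called. With the p threshold alone 13 passed, 6 higher and 7 lower, beside 35.9% of all genes, and the median was 0.0996. *ING4*, reported to bind EGLN1, rose from 269 ± 46.1 to 767 ± 64.2 normalized counts (SD, n = 3 per group), a log2 fold change of 1.51 ± 0.16 (SE). *P4HTM*, a membrane prolyl hydroxylase, was the other, at 8.63 ± 2.47 and 44.4 ± 7.52 normalized counts, and is named after its values were seen. The chaperones *HSP90AA1* and *HSP90AB1*, which hold HIF alpha in the absence of ARNT, fell by 0.88 ± 0.093 and 0.50 ± 0.070 on the log2 scale, below the fold threshold. *HSP90AA1* was called lower without the length offset and when centred on the mean, where the list had 3 called genes. *RACK1*, which promotes degradation of HIF alpha without oxygen sensing, had a log2 fold change of 0.0092 ± 0.087.

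Of 9 other bHLH-PAS factors with an adjusted p, 2 were called higher and 1 lower, beside 7.81% and 2.46% of all genes, with a median of 1.32, or 0.97 with *SIM2*, at 0 in every DMSO library, set to a floor of 3 counts per library. Most of the list was at low counts. *CLOCK*, a circadian activator, fell from 2772 ± 601 to 1379 ± 369 normalized counts (SD, n = 3 per group), a log2 fold change of -1.01 ± 0.29 (SE) that lies at the threshold and was not called by edgeR's quasi-likelihood test. Its partner *BMAL1* rose from 50.3 ± 15.02 to 126 ± 5.71 and the AHR repressor *AHRR* from 49.96 ± 25.97 to 137 ± 56.2, both named after their values were seen. *NPAS1* had a log2 fold change of 0.41 ± 0.19 (adjusted p = 0.0789), and without the length offset it was called while *AHRR* and *CLOCK* were not. *CLOCK* was also not called with TMM, with GC and length trends removed, or without DMSO replicate 2 or Chelator replicate 2, nor *AHRR* without Chelator replicate 1. Without Chelator replicate 3 only *BMAL1* of this list was called.

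Of 32 HIF target genes 16 were called, all higher, beside 7.81% of all genes called higher, and the median log2 fold change was 1.02. With the p threshold alone 25 passed, all higher, beside 18.5% of all genes. *NDRG1*, a stress-response gene, *VEGFA*, the angiogenic growth factor, and *ALDOC*, a glycolytic aldolase, had log2 fold changes of 4.49 ± 0.17, 2.64 ± 0.10 and 2.52 ± 0.086 (SE). Of a list of noncoding, antisense and readthrough genes tied to the family, 2 of 4 with an adjusted p were called, both higher, with a median of 0.99. *RAB4B* was the only 1 called of the 3 that adjoin or overlap a member. *MIR210HG*, the host of a HIF-induced microRNA, lies on chromosome 11, where no member lies, and rose by a log2 fold change of 3.43 ± 0.26.

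**Figure D5:**
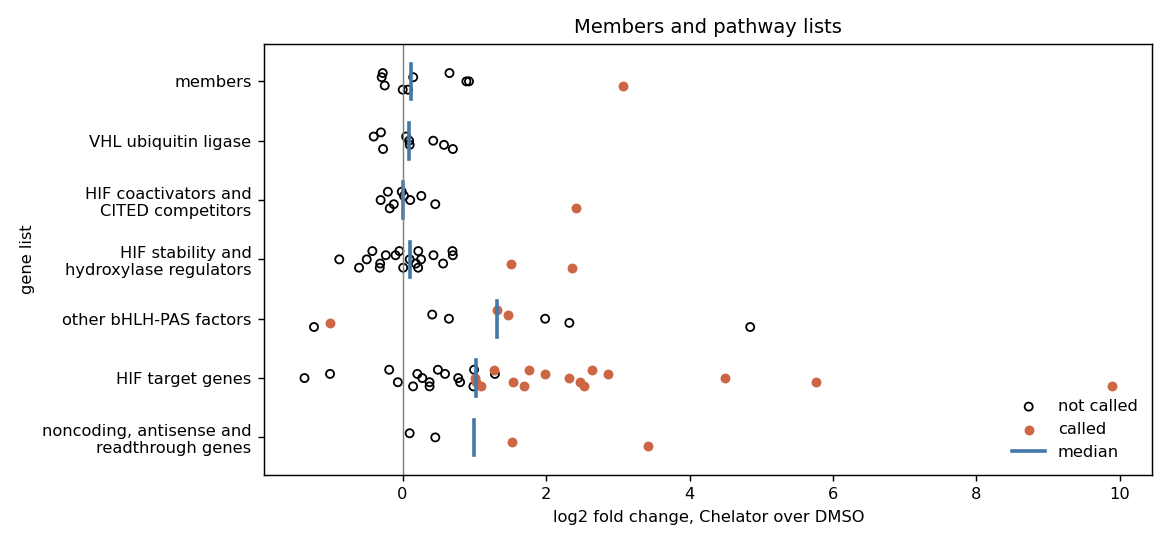
Log2 fold change, Chelator over DMSO, of each gene with an adjusted p in the HIF family and in 6 lists of pathway genes. Filled points were called, open points were not, and bars are list medians, with no floor on counts. No fold can be read for *HIF3A* and *ARNT2*, which are among the points, nor for *SIM2* and *CA9*, at 0 in DMSO. Of the HIF family 1 of 10 was called, beside 10.3% of all genes. Of the HIF target genes 16 of 32 were called, all higher, beside 7.81% of all genes called higher.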

How the data were processed

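The authors quantified reads per transcript with salmon (version 1.10.2 per the labels). The deposited files hold, for 252045 transcripts in each of 6 libraries, an estimated count and a TPM value, that is the estimated count per effective length scaled to a fixed total. The annotation, library strandedness and bias settings were not given in the sources used here. Transcripts were matched to GENCODE on GRCh38, where 251142 had the same version and length and 433, with 0.139% to 0.150% of counts, had no match. Coordinates are 1-based.

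Estimated counts were summed per gene and rounded. Genes with a total above 10 entered DESeq2 (version 1.42.0, R 4.3.3) with median-ratio size factors and average transcript length as offset, which gave the normalized counts, on 26074 genes, with Benjamini-Hochberg adjustment over all genes. Transcript usage was tested with edgeR 4.0.16 (diffSpliceDGE, Simes p) on transcripts that reached 10 counts in 3 or more libraries, and called at an adjusted p under 0.05 with a share change above 5 percentage points. Shares of TPM were compared by exact two-sided permutation tests. The scripts were tested on simulated data. The test of gene expression and its thresholds follow the authors' methods.

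All members were named. For those with a mean of at least 20 counts per library, the transcripts holding at least 10% of the TPM in either group were named too. From each list, the rule took up to 4 called genes with the largest change and a mean of at least 100 normalized counts, or else the genes with the highest means. A gene it took is not reported here. The members and lists were chosen with earlier results of these data known. The labels call the replicates biological, without saying how cultures were separated, so p-values measure the spread between these samples. Alternatives were edgeR's quasi-likelihood test, TMM, no length offset, centring on the mean, GC and length trends, other filters, other thresholds, limma 3.58.1 for usage, and leaving out each library. Amino acid lengths were counted from annotated coding sequence.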

Additional observations from a re-analysis of the deposited data

How the results depend on the processing

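*EPAS1* remained called, and *EGLN2*, *EGLN3* and *VHL* kept their direction and an adjusted p under 0.05, in all 15 alternatives. *HIF1AN* kept its direction in 15 and passed in 14. The sign of *HIF1A*, near 0, turned to -0.16 without the length offset, to -0.12 when centred on the mean, and to -0.00056 with the replicate block, and ran from -0.086 to 0.067 with each library left out (-0.056 without DMSO replicate 1). *ARNT* turned to -0.031 without the length offset and *EGLN1* to -0.042 when centred on the mean. *HIF3A* and *ARNT2* had too few counts for a sign or a fold to be read, and their fitted values only show how loosely they were set, with *HIF3A* at -0.59 without the length offset (adjusted p = 0.844) and *ARNT2* from -0.99 to 1.65 with each library left out (-0.00014 without DMSO replicate 2). Centring moved the median of all genes from 0.019 to -0.10 and the share of calls that were higher from 76.1% to 65.5%, and this share was 91.2% when the null hypothesis was a log2 change within 1 and 51.6% with no fold threshold.

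With no fold threshold 9183 genes and 5 members passed, and 6, 4, 13 and 25 genes of the VHL ligase, coactivator, stability and target lists. With that null hypothesis 671 genes were called (612 higher, 59 lower), with 0 in the stability list and 0 among the bHLH-PAS factors, where DESeq2 against a change of 0 gave 15 and 5 genes an unadjusted p under 0.05 and edgeR called 2 and 2. With each library left out, the bHLH-PAS count was 1 to 3. Called genes for usage were 1101 in the main test, 3184 with limma, 728 with a threshold of 10 percentage points, and 539 to 1063 with each library left out. Members called for usage were then 3, 0 and 0 to 2. With a library left out, 2 were called without DMSO replicate 2, *EGLN1* and *EGLN2*, and 0 without Chelator replicate 2 or replicate 3. Transcripts at 0 in DMSO could not reach 10 counts in 3 libraries with a Chelator library left out. The rise in the *EPAS1* share of alpha-subunit RNA was 48.4 percentage points by estimated counts and 40.6 by protein-coding transcripts. The cause of these shifts was not tested.

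Samples with the same replicate number did not deviate together (correlations of -0.018, 0.085 and 0.036), so the numbers were not taken as pairs. With the replicate block 2333 genes were called in place of 2624, 1 member remained called, and 923 genes were called for usage. Low counts limited *HIF3A* and *ARNT2*, at 0 to 7 per library, and the transcripts EPAS1-209 and EPAS1-207, at means of 19.0 and 7.45. The effect of depth was not tested.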
